A study of Homo sapiens with 42 samples.

Results

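The AP-1 FOS and JUN family was followed through 7 lists of m6A peaks from HepG2, an established human hepatocellular carcinoma cell line. The members are the 7 genes FOS (ENSG00000170345), FOSB (ENSG00000125740), FOSL1 (ENSG00000175592), FOSL2 (ENSG00000075426), JUN (ENSG00000177606), JUNB (ENSG00000171223) and JUND (ENSG00000130522), and their peaks were those that carry one of these identifiers. They held 20 of the 33672 peaks in the control list, and the 7 genes stand among 17005 with a peak in any list. N6-methyladenosine (m6A), a methyl mark inside messenger RNA, was mapped by m6A-seq, in which sonicated mRNA is immunoprecipitated (IP) with an m6A antibody and compared with input, the RNA before selection. A peak is a stretch of transcript where IP reads exceed input reads, and its fold enrichment is the authors' linear ratio of IP over input.

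All cells carried a lentiviral short hairpin RNA (shRNA) and were kept under puromycin. The shRNA was a non-specific control in the first set or was directed against METTL3, METTL14, WTAP or SETD2 (SETD2 #1), and a further SETD2 shRNA (SETD2 #2) had a control of its own, called the second control here. METTL3 transfers the methyl group in the m6A writer complex, METTL14 helps it hold RNA and WTAP brings both to their targets, while SETD2 trimethylates a lysine of histone H3 in transcribed genes. Each condition had 3 input and 3 IP libraries, 42 samples in 14 groups, and the authors pooled replicates 1 to 3 into 1 peak list per condition. No value below therefore has a replicate error, no p-value between conditions could be computed, and the labels do not say whether replicates were separate cultures. Whether the 2 SETD2 shRNAs differ in target site, and how far each knockdown lowered its target, is not in the sources used here, and peak lists hold no transcript level, so neither the knockdowns nor the identity of the cells was checked.

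AP-1 is a transcription factor dimer that binds DNA through paired leucine zippers. The JUN proteins can pair with each other or with a FOS protein, and the FOS proteins bind as partners of JUN proteins. FOS, FOSB, JUN and JUNB are classical immediate early genes, induced within minutes by growth factors and stress from transcripts that decay fast, and JUN is required for normal proliferation of hepatocytes in regenerating liver. m6A in messenger RNA is enriched around stop codons and in long exons, and it is known for promoting transcript decay.

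All 7 members had at least 1 peak in every one of the 7 lists. So did 9749 of the 17005 genes with a peak in any list. The members also had a peak in every one of the authors' shorter lists, where the share over all genes was not computed. Those shorter lists keep peaks whose fold enrichment is 2 or more and whose p-value is 1e-05 or less. The family held 20 peaks in the control list, 19 with METTL3 shRNA, 21 with METTL14, 20 with WTAP, 16 with SETD2 #1, 18 in the second control and 16 with SETD2 #2. The whole lists held 28645 to 33672 peaks. Most member peaks lay above the middle of their list. In the control list 17 of 20 were above the list's median fold enrichment of 6.79, with a median over the members of 17.7. The counts were 17 of 19 with METTL3, 18 of 21 with METTL14, 17 of 20 with WTAP, 12 of 16 with SETD2 #1, 16 of 18 in the second control and 12 of 16 with SETD2 #2. The list medians of fold enrichment were 7.02 with METTL3, 6.71 with METTL14, 6.99 with WTAP, 5.32 with SETD2 #1, 4.33 in the second control and 3.81 with SETD2 #2, so a fold enrichment in 1 list does not have the same standing in another. Long peaks occurred in 3 members of the control list, FOSL2, JUN and JUNB, where each had 1 peak of at least 1000 bases, a width reached by 5.79% of all control peaks.

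**Figure D1:**
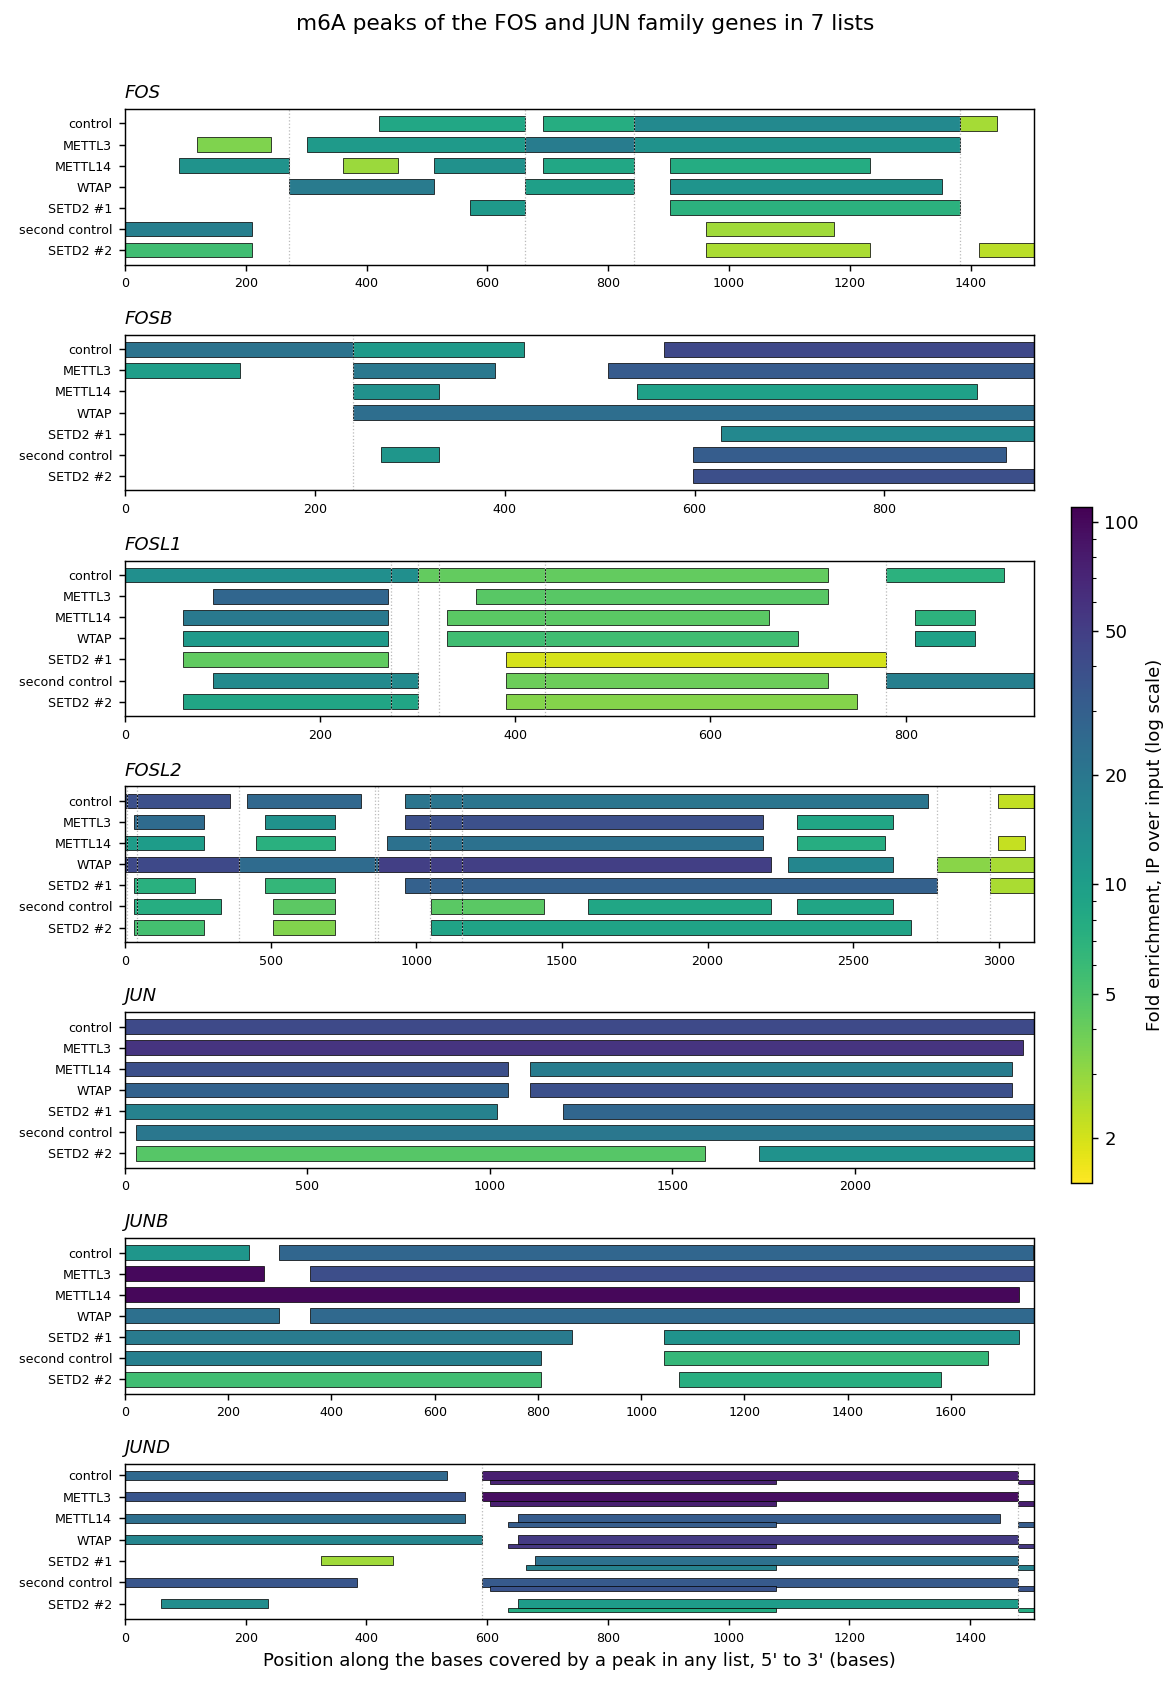
Peaks of each gene in each list, drawn along the bases covered by a peak in any list from 5′ to 3′ (x axis, bases, with uncovered sequence removed and dotted lines where sequence was removed) and coloured by fold enrichment on a log scale. Overlapping JUND peaks are drawn at different heights. JUN, JUNB and the downstream JUND stretch are covered over most of their length in every list, and FOS is covered in scattered short peaks.

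The FOS genes held 14 of the 20 peaks of the family in the control list. FOS, the founding member, whose protein dimerises with JUN proteins, had peaks in 5 stretches between hg19 chr14:75745537-75748334 on the plus strand. Only the fourth stretch, chr14:75747494-75748034, had a peak in all 7 lists. Its fold enrichment was 14.6 in the control, 12.5 with METTL3, 7.87 with METTL14, 11.9 with WTAP, 7.08 with SETD2 #1, 2.76 in the second control and 2.57 with SETD2 #2. The second control and its SETD2 #2 partner stood below the 5 lists of the first set there. The second stretch, chr14:75746505-75746895, had a peak in all 5 lists of the first set, with fold enrichments of 8.57, 10.7, 12.8, 18.8 and 11 from control through METTL3, METTL14, WTAP and SETD2 #1, and none in the second control or with SETD2 #2. The most upstream stretch, chr14:75745537-75745807, had the opposite look, with 17.6 in the second control and 5.62 with SETD2 #2, beside 3.42 with METTL3 and 12.2 with METTL14 and no peak in the other lists. These upstream peaks were weak, with log10 p-values from -2.33 to -9.93 in the first 3 stretches. The third stretch, chr14:75747195-75747374, had 7.71 in the control, 18.3 with METTL3, 8.54 with METTL14 and 9.93 with WTAP. The last stretch, chr14:75748214-75748334, had a peak in the control (2.68) and with SETD2 #2 (2.34) alone.

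FOSB, the most similar paralog of FOS, had 2 stretches on the plus strand of chromosome 19. The main one, chr19:45975840-45976556, had a peak in every list, with highest fold enrichments of 43.3 in the control, 32.5 with METTL3, 12.8 with METTL14, 23.7 with WTAP, 14.9 with SETD2 #1, 31.3 in the second control and 39.4 with SETD2 #2. METTL14 and SETD2 #1 were the lowest, and SETD2 #2 was above its own control. The best log10 p-value in a list was between -8.82 and -24.1, modest for such ratios. The 39.4 with SETD2 #2 stood at the 99.9th percentile of that list by fold enrichment but at the 56.8th by p-value. The upstream stretch, chr19:45971581-45971820, had a peak in the control at 21.4 and with METTL3 at 10.1 and in no other list.

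FOSL1, which encodes the FOS-related protein Fra-1, had the lowest enrichment of the family in its most significant control peak. That peak lay in chr11:65660418-65664301 on the minus strand, a span that includes introns, and its fold enrichment was 4.18 in the control, 4.55 with METTL3, 4.49 with METTL14, 5.64 with WTAP, 1.97 with SETD2 #1, 3.93 in the second control and 3.34 with SETD2 #2. Every one of these was below the median of its list, and SETD2 #1 was the lowest. In SETD2 #1 the peak with the best p-value was instead the upstream one, chr11:65664451-65667984, which reached 13.1 in the control, 26.9 with METTL3, 19.5 with METTL14, 10.8 with WTAP, 4.29 with SETD2 #1, 14.4 in the second control and 8.8 with SETD2 #2. Both SETD2 lists were below their controls in both stretches. A further short stretch toward the 3′ end, chr11:65659520-65659670, had 7.07 in the control, 7.02 with METTL14, 9.38 with WTAP and 17.6 in the second control, and no peak with METTL3 or either SETD2 shRNA.

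FOSL2, which encodes Fra-2, had the longest covered length of the FOS genes, from 1861 bases in the second control to 2912 with WTAP, in 5 stretches of chr2:28615405-28637754 on the plus strand. The 2 upstream stretches and the long central one had peaks in every list. In the first, chr2:28615405-28616072, the fold enrichment was 38.6 in the control, 24.9 with METTL3, 10.4 with METTL14, 42.6 with WTAP, 7.21 with SETD2 #1, 7.72 in the second control and 5.37 with SETD2 #2. In the second, chr2:28616222-28618389, it was 26.0 in the control, 12.6 with METTL3, 7.25 with METTL14, 24.8 with WTAP, 6.43 with SETD2 #1, 4.42 in the second control and 3.4 with SETD2 #2. Within the first set the control and WTAP lists were high and the METTL14 and SETD2 #1 lists low in both. The central stretch, chr2:28627048-28636376, did not follow that order, with highest fold enrichments of 20.8 in the control, 38.7 with METTL3, 22.0 with METTL14, 49.4 with WTAP, 29.7 with SETD2 #1, 8.75 in the second control and 9.12 with SETD2 #2. By this highest value no knockdown list was below its own control there. With METTL3, METTL14 and WTAP the stretch also held a shorter 3′ peak, at 8.63, 7.55 and 15.3, each below the control's 20.8. Of the last 2 stretches, chr2:28636406-28636586 had a peak with WTAP alone (3.22), and chr2:28637604-28637754 had 2.23 in the control, 2.17 with METTL14, 2.64 with WTAP and 2.58 with SETD2 #1.

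In the control list the leading peaks of JUND, JUN and JUNB, by p-value, came before those of the FOS genes. JUN, the prototype of its branch, had its peaks in 1 stretch, chr1:59247300-59249789 on the minus strand. The control list covered it with 1 peak of 2490 bases at 41.6-fold, at the 99.7th percentile of width in that list, and METTL3 and the second control with 1 peak of 2460 bases each, at 57.5-fold and 19.9-fold. The other 4 lists had 2 peaks with an uncovered gap between them. With METTL14 the gap was the 59 bases chr1:59248680-59248738, between a 5′ part at 39.1-fold and a 3′ part at 18.5-fold. With WTAP the gap had the same coordinates, but the 3′ part was the higher, 38.3-fold against 29.2-fold. With SETD2 #1 it was 179 bases, chr1:59248590-59248768, and again the 3′ part was higher, 26.9-fold against 16.5-fold. With SETD2 #2 the gap lay further toward the 3′ end, 149 bases at chr1:59248051-59248199, with 12.3-fold in the 3′ part and 4.69-fold in the 5′ part. The knockdown lists therefore differed in how enrichment was divided along the transcript, while at least 2311 bases were covered in every list. The log10 p-value of the best JUN peak was between -405 and -1080.

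JUNB, which often restrains JUN-driven transcription, was covered in chr19:12902310-12904069 on the plus strand, over 1313 bases with SETD2 #2 to 1731 with METTL14. The short 5′ peak and the long downstream peak had 11.6-fold and 27.1-fold in the control, 100-fold and 39.8-fold with METTL3, and 22.8-fold and 25.7-fold with WTAP. With METTL14 a single peak of 1731 bases had 102-fold, the highest value of any member in any list and the 99.5th percentile of that list. By p-value it stood at the 94.7th percentile, and the long control peak at the 96.7th of its own list. The 100-fold peak with METTL3 had 269 bases and stood at the 75.2nd percentile by p-value. The remaining lists divided the gene further downstream, with 18.8-fold and 12.2-fold in SETD2 #1, 17.6-fold and 6.3-fold in the second control, and 5.64-fold and 7.39-fold in SETD2 #2. METTL3 and METTL14 were thus above the control and both SETD2 lists below their controls over most of the length. A peak of another gene (ENSG00000095066) on the opposite strand shared 180 to 259 bases with the JUNB peaks in the control, METTL3, METTL14 and WTAP lists, at 6.43-fold, 8.12-fold, 11.6-fold and 14.3-fold, and in none of the other lists. Its part in the JUNB values was not tested.

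JUND, which unlike the immediate early members is expressed in resting cells, had exactly 3 peaks in every list within chr19:18390829-18392432 on the minus strand. Of these, 2 overlap on the same strand, a single block of up to 887 bases and a peak of 2 blocks, so their values are not independent. In the single block the fold enrichment was 76.5 in the control, 93.4 with METTL3, 31.9 with METTL14, 53.0 with WTAP, 22.6 with SETD2 #1, 33.0 in the second control and 10.5 with SETD2 #2. The 2-block peak had 73.5, 76.1, 31.6, 56.0, 16.5, 36.6 and 7.84 in the same order. The upstream peak, in chr19:18391841-18392432, had 25.7 in the control, 35.5 with METTL3, 23.2 with METTL14, 15.6 with WTAP, 2.77 with SETD2 #1, 35.1 in the second control and 13.7 with SETD2 #2. All 3 peaks were lowest within their set in the SETD2 list, and the upstream one was also narrower, 119 bases with SETD2 #1 against 533 in the control and 178 with SETD2 #2 against 385 in the second control.

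To set the genes side by side, the fold enrichments of a gene's peaks were averaged with the peaks' bases as weights. Bases shared by the 2 overlapping JUND peaks entered once for each peak, so JUND's means and their ratios give that stretch extra weight. In the control list the mean was 61.6 for JUND, 41.6 for JUN, 29.5 for FOSB, 24.9 for JUNB, 23.1 for FOSL2, 11.4 for FOS and 7.78 for FOSL1. JUND and JUN were the 2 highest. Without replicates it cannot be said which neighbours in this order differ beyond their error. The second control put JUND first as well, at 34.5, but FOSB second at 28.2, ahead of JUN at 19.9, JUNB at 12.7, FOS at 10.2, FOSL1 at 10.1 and FOSL2 at 7.14. FOSL2 was below the JUN genes and FOSB in both, and last in the second control. With METTL3 the means were 72.2 for JUND, 57.5 for JUN, 49.5 for JUNB, 29.1 for FOSL2, 26.1 for FOSB, 12.0 for FOSL1 and 11.9 for FOS. With METTL14 they were 102 for JUNB, 29.2 for JUND, 27.6 for JUN, 16.0 for FOSL2, 10.2 for FOSB, 9.99 for FOSL1 and 9.17 for FOS, so JUNB stood far above the rest. With WTAP they were 42 for JUND, 34.9 for FOSL2, 34.3 for JUN, 25.2 for JUNB, 23.7 for FOSB, 13.4 for FOS and 7.72 for FOSL1. With SETD2 #1 they were 23.8 for FOSL2, 22.3 for JUN, 18.9 for JUND, 15.9 for JUNB, 14.9 for FOSB, 7.7 for FOS and 2.78 for FOSL1. With SETD2 #2 they were 39.4 for FOSB, 10.0 for JUND, 8.12 for FOSL2, 7.16 for JUN, 6.32 for JUNB, 5.52 for FOSL1 and 3.66 for FOS. JUND, highest in both controls and with METTL3 and WTAP, was highest neither with METTL14 nor in either SETD2 list.

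**Figure D2:**
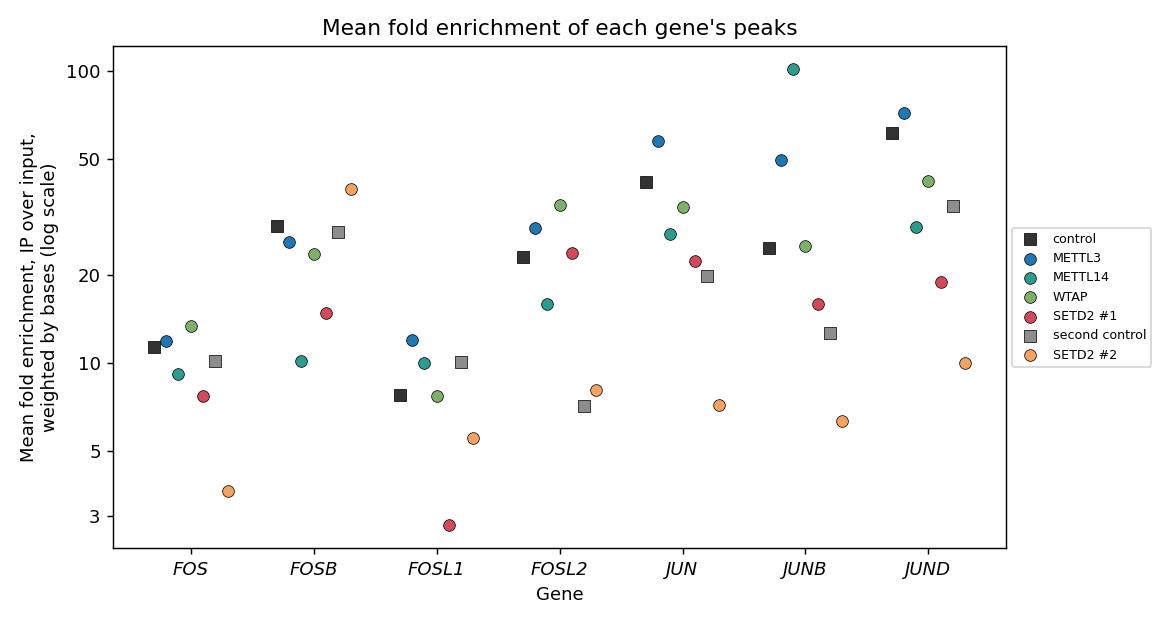
Mean fold enrichment of each gene's peaks weighted by their bases (y axis, IP over input, log scale) in the 7 lists, 1 point per pooled list. Squares are the control lists and circles the knockdown lists. JUND is at 61.6 in the control and 18.9 with SETD2 #1, and at 34.5 in the second control and 10.0 with SETD2 #2, and JUNB reaches 102 with METTL14.

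Loss of whole peaks was looked at first. A peak was absent from another list when no peak there shared at least 1 base of its blocks on the same strand. No member was left without a peak in any comparison. Of all 14570 genes with a control peak, 1880 had none with METTL3, 2620 with METTL14, 2424 with WTAP and 2202 with SETD2 #1. From the control to the second control it was 1954. Of 13526 genes with a peak in the second control, 1423 had none with SETD2 #2 and 910 none in the control. Whether 0 of 7 differs from these shares was not tested. Of the 20 control peaks of the family, 3 were absent with METTL3 (15%, exact Clopper-Pearson 95% interval 3.21 to 37.9%), against 22.8% of all control peaks. With METTL14 and with WTAP 2 of 20 were absent (10%, 1.23 to 31.7%), against 29.8% and 28.8% of all. With SETD2 #1 5 of 20 were absent (25%, 8.66 to 49.1%), against 27% of all. With SETD2 #2 2 of the 18 peaks of the second control were absent (11.1%, 1.38 to 34.7%), against 20.5%. Each of these intervals, which cover counting error only, holds the share over all peaks. At this overlap of at least 1 base the family's peaks were therefore not shown to be lost less or more often than others. The 2 controls differed from each other as much: 5 of the family's 20 control peaks had no counterpart in the second control (25%), against 28.6% of all, and 1 of 18 the other way (5.56%), against 15.6%.

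The absent peaks were short and of weak p-value, though not all of low fold enrichment. In the knockdown comparisons they were 61 to 240 bases wide, with log10 p-values from -2.31 to -6.49 and fold enrichments from 2.23 to 21.4, 1 or 2 per comparison were in the authors' shorter lists, and they came from FOS, FOSB, FOSL1 and FOSL2. The JUN genes lost none. The 2.68-fold peak of FOS at its last stretch was absent from all 4 knockdown lists of the first set, and so was the FOSB upstream peak from all but METTL3. Peaks gained over the control were as few. A FOS peak in the most upstream stretch was gained with METTL3 (1 of 19 peaks, against 10.6% of all peaks) and METTL14 (1 of 21, against 12.7%), a FOSL2 peak with WTAP (1 of 20, against 13.5%), none with SETD2 #1 (0 of 16, interval up to 20.6%, against 8.07%) and a FOS peak with SETD2 #2 (1 of 16, against 14.5%). The 4 comparisons of the first set share their control list and are not independent of each other.

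**Figure D3:**
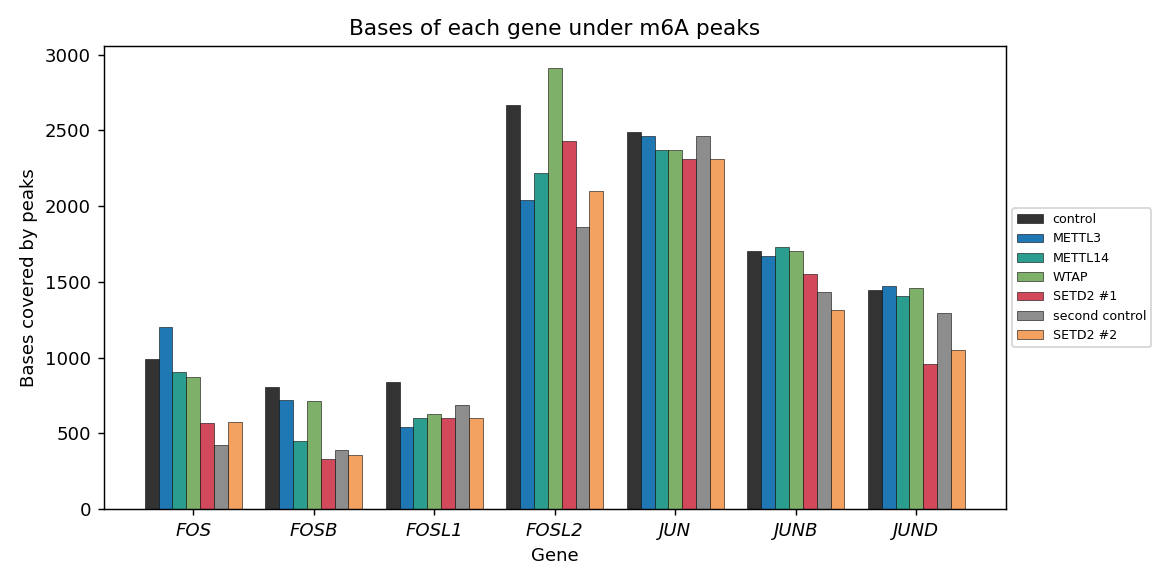
Bases of each gene covered by peaks (y axis, from 0) in the 7 lists, 1 bar per pooled list. JUN is covered over 2311 to 2490 bases in every list. FOSB has 809 bases in the control and 329 with SETD2 #1, beside 391 in the second control and 359 with SETD2 #2.

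For control peaks with an overlapping peak in the other list, the ratio of the 2 fold enrichments was taken, and at least 2 times was used as the size that counts as lower or higher. With METTL3 shRNA 2 of 17 matched member peaks were lower (against 11.7% of all matched peaks) and 3 were higher (against 11.8%). The higher ones were the JUNB 5′ peak at 8.62 times its control value, a FOS peak at 2.37 times and the FOSL1 upstream peak at 2.05 times. The lower ones were the FOSB upstream peak at 0.472 and the second FOSL2 stretch at 0.485. The median ratio was 1.25 over the members and 0.948 over all peaks. By gene means 0 of 7 were at least 2 times lower (against 13.2% of all genes), and 1 of 7, FOSB, was below its control value at all, against 58.5% of all genes. JUNB had the highest ratio, 1.99.

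With METTL14 shRNA 6 of 18 matched peaks were lower (against 19.2%) and 2 were higher (against 12.2%). The lower ones were the FOSB main peak (0.22 of the control value), both upstream FOSL2 stretches (0.269 and 0.279), JUN (0.445) and the overlapping JUND peaks (0.417 and 0.43). The JUN value rests on the 3′ part, which shared the most bases with the control peak, while the 5′ part had 39.1-fold beside 41.6-fold in the control, and the ratio of JUN's means was 0.664. Both higher ones were JUNB peaks, at 8.79 and 3.76 times, and were matched to the same METTL14 peak. By gene means 2 of 7 members, FOSB (ratio 0.345) and JUND (0.473), were at least 2 times lower, against 20.8% of all genes, and 5 of 7 were below 1, against 64% of all genes. JUNB, at 4.09 times its control value, stood at the 98.8th percentile of all genes. With WTAP shRNA 0 of 18 were lower (against 18.8%) and 3 were higher (against 11.9%), namely a FOS peak at 2.19, a FOSB peak at 2.21 and the central FOSL2 peak at 2.38 times. The FOSB value comes from a 10.7-fold control peak matched to the single WTAP peak, to which the 43.3-fold main FOSB peak was matched as well, at 0.547, and the ratio of FOSB's means was 0.802. By gene means 0 of 7 were at least 2 times lower (against 19.1%), with JUND the lowest at 0.682. The median ratio was 0.983 with METTL14 and 1.03 with WTAP over the members, and 0.861 and 0.836 over all peaks.

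With SETD2 #1 shRNA 10 of 15 matched peaks were lower (against 21.8%) and 0 were higher (against 4.12%), and the median ratio was 0.45 over the members and 0.782 over all peaks. The 10 came from FOS (1), FOSB (1), FOSL1 (2), FOSL2 (2), JUNB (1) and JUND (3). The ratio was smallest for the upstream JUND peak, at 0.108. The 5 that were not lower were a FOS peak, the 5′ JUNB peak, the central and last FOSL2 peaks and JUN, at 0.647 to 1.62. The JUN value, 0.647, rests on the 3′ part at 26.9-fold, while the 5′ part had 16.5-fold beside 41.6-fold in the control. The ratio of JUN's means was 0.536. Since the SETD2 #1 list has a lower median fold enrichment than the control list, the ratios were also taken after division by the list medians, and 7 of 15 were then lower, against 13.8% of all peaks. By gene means 2 of 7, FOSL1 (0.358) and JUND (0.306), were at least 2 times lower, against 25.5% of all genes, so the gene count was near the background. The peak count enters some genes more than once, and 2 of the 3 JUND peaks overlap, so its peaks are not independent. FOSB, at 0.504, lay just outside that size, and FOSL2, at 1.03, was the only member not below its control value, where 76.5% of all genes were below.

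With SETD2 #2 shRNA 6 of 16 matched peaks were lower than in the second control (against 13.2%) and 1 was higher (against 4.54%), and the median ratio was 0.732 over the members and 0.929 over all peaks. The 6 were the upstream FOS peak (0.319), JUN (0.236), the 5′ JUNB peak (0.32) and the 3 JUND peaks (0.214, 0.318 and 0.39), of which 2 overlap. The JUN value rests on the 5′ part at 4.69-fold, while the 3′ part had 12.3-fold beside 19.9-fold in the second control. The single higher one was a FOSL2 peak at 2.04, of 3 second control peaks matched to the same SETD2 #2 peak. After division by the list medians it was still 6 of 16, against 10.2%. By gene means 4 of 7, FOS (0.359), JUN (0.36), JUNB (0.499) and JUND (0.291), were at least 2 times lower, against 17.5% of all genes. After division by the list medians 3 of 7 were, and the share of all genes after that division was not computed. FOSB (1.4) and FOSL2 (1.14) were above the second control. JUND was the member with the smallest ratio for both SETD2 shRNAs, at the 9.31st percentile of all genes with SETD2 #1 and the 5.08th with SETD2 #2, and the 2 comparisons use different control lists. The 5′ JUNB peak was 1.62 times its control with SETD2 #1 and 0.32 with SETD2 #2, but these ratios cover different bases. The control peak had 240 bases and was matched to 866 bases with SETD2 #1, while the second control peak had 806 bases. The ratio of JUNB's means was below 1 with both shRNAs, at 0.637 and 0.499. FOSB's ratio of means was 0.504 with SETD2 #1 and 1.4 with SETD2 #2. Whether the 2 shRNAs differ was not tested.

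The 2 controls show how far lists of the same kind of cells can stand apart. From the control to the second control 8 of 15 matched member peaks were at least 2 times lower (against 34.7% of all) and 1 was higher (against 5.52%), and 2 of 7 members, FOSL2 (0.309) and JUN (0.478), were at least 2 times lower by their means, against 37.4% of all genes. After division by the list medians 4 of 15 peaks were lower, against 16.3% of all. As deposited, the 8 of 15 lay between the 10 of 15 for SETD2 #1 and the 6 of 16 for SETD2 #2, and after the division the 4 of 15 lay below their 7 of 15 and 6 of 16. Whether these counts differ was not tested. Among control peaks with a p-value of at most 1e-100, 6 of the 7 of the family were lower in the second control, against 57% of all such peaks. The same count was 0 of 7 with METTL3 (9.49% of all), 4 of 7 with METTL14 (21.6%), 0 of 7 with WTAP (18.9%) and 5 of 7 with SETD2 #1 (25.1%), and it was 3 of 5 from the second control to SETD2 #2 (16.8%). The 2 overlapping JUND peaks are among the 7 and among the 5. Both were lower wherever the count was not 0, so these counts are not of independent peaks. JUND was at 0.559 of the control by its mean, with its overlapping peaks at 0.498 and 0.431 and its upstream peak at 1.37 times the control. Peak lists hold no read depth or transcript level, so their part in these ratios was not tested.

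**Figure D4:**
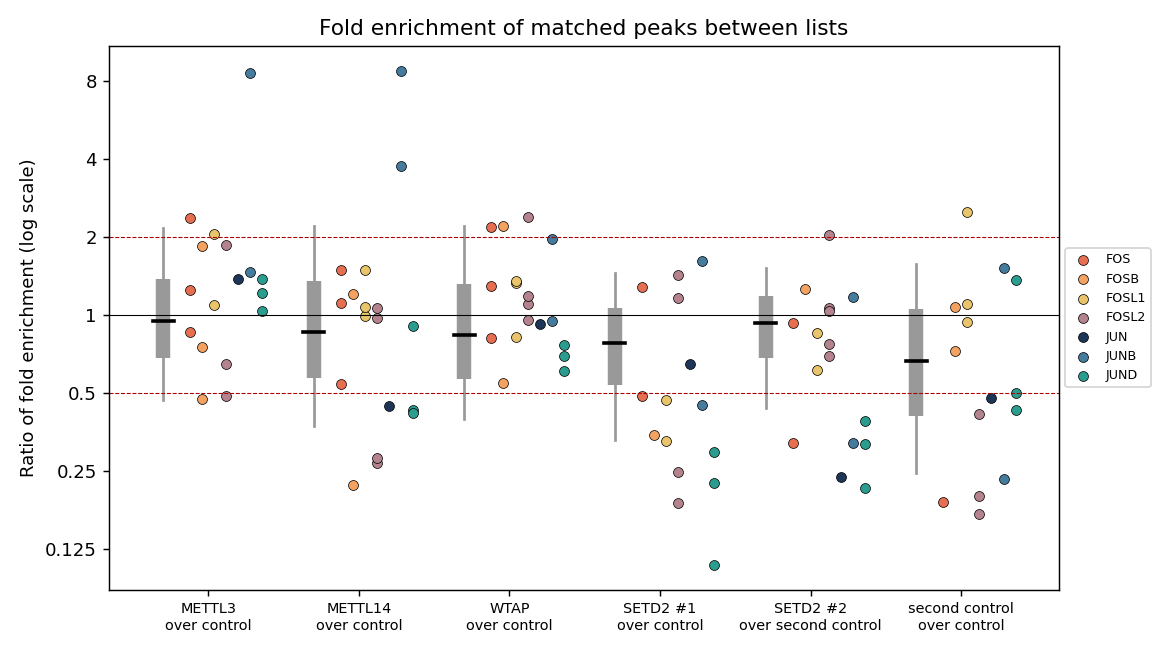
Ratio of fold enrichment between lists for each control peak of the family with a match (y axis, log scale, 1 point per peak, coloured by gene) in 6 comparisons, with all matched peaks in grey (box from the 25th to the 75th percentile, line from the 10th to the 90th, black bar at the median). Dashed lines mark 2 times lower and higher. The 3 JUND peaks, of which 2 overlap, lie below the lower line in both SETD2 comparisons. The overlapping 2 also lie below it with METTL14 and between the 2 controls.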

How the data were processed

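m6A-seq input and IP libraries of HepG2 cells (42 samples) were reduced by the authors to 1 exomePeak list per condition, pooling replicates 1 to 3, per the labels. Reads were handled with TopHat2 2.1.1 and FastQC 0.11.5 on the build hg19, per the submitters' processing notes. Neither the exomePeak version nor the gene annotation is given in the sources used here. Per the file headers, each deposited peak has a p-value, scores without a fixed range that hold log10 of p and of the false discovery rate (FDR), and a fold enrichment, a ratio of IP over input made by the authors. Read depth per library, and with it each peak's precision, is unknown.

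Repeated rows (11 to 21 per list) were counted once. Peaks were joined to genes by identifier. A counted peak was matched to the peak that shared the most bases of its blocks on the same strand. The comparisons were each first-set knockdown against the control, SETD2 #2 against the second control, and the 2 controls against each other. No test between conditions was possible. Intervals of shares are exact Clopper-Pearson intervals at 95% and hold counting error alone. Work was done with pandas 2.3.3, numpy 2.4.6 and scipy 1.17.1 under Python 3.11.15, and the overlap code was tested on simulated data.

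All 7 members are named. For likeness, the rule took for each member the gene with the smallest root mean square difference of log2 fold enrichment of the best-p peak over the list median. The members and lists were chosen with earlier results of these data known. The files pair no symbols with identifiers, so the gene names are those given for the 7 identifiers, whose chromosomes match RefSeq's for 7 of 7, and planned lists of AP-1 pathway and HepG2 marker genes were not analysed here. No exon or UTR annotation and no peak sequence of hg19 was used here. Alternatives were stricter thresholds, other overlaps, other leading peaks and scaling by list medians. For the ratios between lists, scaling by list medians, 1 to 1 pairs and gene medians were chosen after seeing the data.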

Additional observations from a re-analysis of the deposited data

How the results depend on the processing

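No paired analysis was possible because each list pools replicates 1 to 3, and for the same reason no replicate could be left out. All 7 members had a peak in every list under both alternatives for that count, the shorter lists and peaks of any identifier. With an FDR of at most 1e-05 on both sides, 13 control peaks of the family remained to be counted, and 0% were absent with METTL3, METTL14, WTAP and SETD2 #1, against 20.4, 29.8, 27 and 25.3% of all peaks, and 7.69% from the second control, against 28.3%. That setting leaves out the peaks of weak p-value by its construction, among the members and among all peaks alike. The 0% stands for 0 of 13, and no interval was computed for it. With an overlap of at least 50% of both peaks, absence was 50% from the control to the second control (45.2% of all peaks) and 44.4% the other way (40.8%), and 31.2% of SETD2 #1 peaks were gained (28.1%), each near the share over all peaks. The cause was not tested. With fold enrichment divided by list medians, 1 member in place of 2 had a mean at least 2 times lower in the second control, and 3 in place of 4 with SETD2 #2. No share over all genes was computed for these divided means. Taking the peak of highest fold enrichment as a gene's leading peak raised 15 of 49 leading values by more than 1.5 times, division by the list median puts all 49 on another scale, and in the shorter lists 5 of 49 covered lengths were more than 1.5 times shorter. Beyond those named, shares of absent, gained and lower peaks stayed within their exact 95% intervals, and counts of lower genes within 1.5 times, under the alternatives run. With so few peaks these intervals are wide, so a share inside them can still have moved far. With the 50% overlap, absence went from 25 to 45% with SETD2 #1 and from 11.1 to 33.3% with SETD2 #2. All peaks had 38.9% and 31.9% there. With METTL3 it stayed at 15%, against 35.1% of all peaks. With METTL14 it went from 10 to 15% (3 of 20), against 45.2% of all peaks. With WTAP it went from 10 to 20% (4 of 20), against 43.8%. The exact interval of 3 of 20, 3.21 to 37.9%, does not hold the 45.2%. That interval covers counting error only, and peaks of the same gene are not independent. The planned lists of pathway and marker genes were not run. Depth limits every value here, since neither reads per library nor counts per peak were used.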

Other observations

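Likeness to other genes was described over the 7 lists by the fold enrichment of the most significant peak, divided by its list's median, among 9749 genes with a peak in every list. The nearest gene to JUND was ENSG00000229422, with a root mean square difference of 0.139 on the log2 scale, and the nearest to FOSL1 was ENSG00000114316, at 0.167. For the other members the nearest gene was 0.231 to 0.377 away, with JUNB the farthest. The files give no symbols for these identifiers, the points share their lists, and with 7 lists a near match among so many genes is no finding about either gene.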
